A study of Mus musculus with 4 samples.

Results

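The 36 genes described here carry out fatty acid synthesis, desaturation, elongation, activation and storage, and were measured by RNA sequencing in cultured epidermal stem cells (EpSCs) from mouse skin of strain C57BL/6. They were picked by gene symbol, as named enzymes and proteins of these steps, and all 36 were found among the 54532 genes of the deposited table. One group of cultures received ALP, by the series title a polysaccharide of Arctium lappa L. (burdock), at 30 μg/mL, and the control group received the vehicle alone, 0.06% DMSO, each for 48 h. All cultures were grown in EpiLife medium with HKGS, a keratinocyte growth supplement. Each group held 2 libraries, called here ALP 2 and ALP 3 and control 1 and control 3 after the numbers the table carries. ALP 3 and control 3 share a number, but no source used here says that a shared number marks a pair. No source says that the 2 libraries of a group derive from different animals or cultures, so each p-value below measures only the spread between these libraries, which may be technical.

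Cells make fatty acids in the cytosol from citrate exported by mitochondria: ATP citrate lyase cleaves citrate to acetyl-CoA, acetyl-CoA carboxylase makes malonyl-CoA, and fatty acid synthase builds palmitate with NADPH as reductant. Elongases and desaturases of the endoplasmic reticulum then lengthen the chain and add double bonds, acyl-CoA synthetases activate it, and acyltransferases attach it to glycerol to form membrane phospholipids or triglycerides, which are kept in lipid droplets. In skin these steps supply sebum and the barrier lipids of the outer epidermis, and SREBP transcription factors, which bind the sterol regulatory element, are known activators of many of these genes.

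Library totals ran from 15766244 to 17430345 counts, and 3 counts, the limit that a count of 0 allows, correspond to 0.170 to 0.194 CPM (counts scaled to library size). Of the table's genes, 14056 passed the filter on low counts and were tested with edgeR's quasi-likelihood test with Benjamini-Hochberg adjustment. A gene is called below at an adjusted p under 0.05, the smallest adjusted p in the whole table was 0.0161, and the residual degrees of freedom were 2. The ALP libraries differed more from each other than the controls did, with a chi-square per degree of freedom over genes of 24.8 against 6.42, while pairs of 1 ALP and 1 control library gave 59.8 to 164. The 7 basal keratinocyte markers were abundant as a sum in every library. They reached 29813 to 36158 CPM with ALP and 48290.2 to 48473 CPM in the controls, with 4 called lower and 2 higher. Krt15, not called, was at 58.4 and 1.74 CPM in ALP 2 and ALP 3 and 251 and 201 CPM in control 1 and control 3. The 7 markers of differentiated keratinocytes summed to 876 CPM in ALP 2 and 60.6 CPM in ALP 3 against 3340 and 2767 CPM in control 1 and control 3 (3 called lower, 1 higher). Markers of the lipid-storing cells of skin were near the limit of detection: 8 sebocyte markers summed to 1.88 to 2.97 CPM over the 4 libraries with Awat1 and Dgat2l6 at 0, and 8 adipocyte markers to 0.194 to 0.566 CPM with Plin1 and Cfd at 0. Fibroblast markers summed to 4.45 to 7.92 CPM with ALP and 13.6 to 17.5 CPM in the controls, where Dcn was the only one of 6 called (lower) and Lum was at 0. The 4 endothelial markers summed to 14.8 to 24.9 and 4.64 to 6.62 CPM, nearly all from Pecam1 and Kdr (both called higher), with Cdh5 at 0 in 2 libraries and at most 0.113 CPM and Tie1 at most 0.462 CPM. The sums were 53.7 to 64.7 and 56.6 to 61.9 CPM for melanocyte markers, and 0.404 to 0.581 and 0.566 to 1.03 CPM for leukocyte markers (Cd3e and Cd207 at 0). The part of these differences in marker levels in the results below was not tested, and in these bulk samples fewer cells of a type and less RNA per cell cannot be told apart.

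Many genes of fatty acid synthesis, desaturation and elongation rose with ALP. Of the 36 genes, 33 could be tested: 15 rose, 1 fell and 17 did not pass the test. The share that rose, 45.5% of those tested, compares with 17.7% of all genes tested, and the share that fell, 3.03%, with 12.1%. The genes were chosen with earlier results of these data known, so these shares only describe the list. Among the 15 that rose, fold changes ran from 1.29 for Elovl1 to 3.0 for Acsl4, 7 were at least 2-fold, and adjusted p ran from 0.0161 to 0.0316. The median log2 fold change of the 33 was 0.37, against -0.003 over all genes tested, and 27 of the 33 had a positive value. Both ALP libraries lay above both controls in 24 of the 33, or 72.7%, against 38.2% of all genes tested, and below both in 5, against 37.5% of all genes. Without control 1 no gene in the table passed the test, and without control 3 only 3 of these genes rose (Fasn, Fads1 and Fads2). The 15 kept their direction without any single library. That outcome was fixed in advance, because both ALP libraries lay above both controls in all 15.

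The 36 genes together took 0.882% and 0.905% of all counts in ALP 2 and ALP 3 and 0.553% and 0.613% in control 1 and control 3. The summed level was 1.57-fold higher with ALP, and 1.5-fold higher when Scd2, the most abundant, was set aside. The remaining 3 genes could not be tested: Thrsp, a protein that promotes lipogenesis in liver and fat, had 2 counts in ALP 2 and 0 in the other libraries, Elovl3, an elongase of sebaceous gland and brown fat, had 1 count in all, and Cd36, a fatty acid uptake receptor, had 0 in every library.

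**Figure D1:**
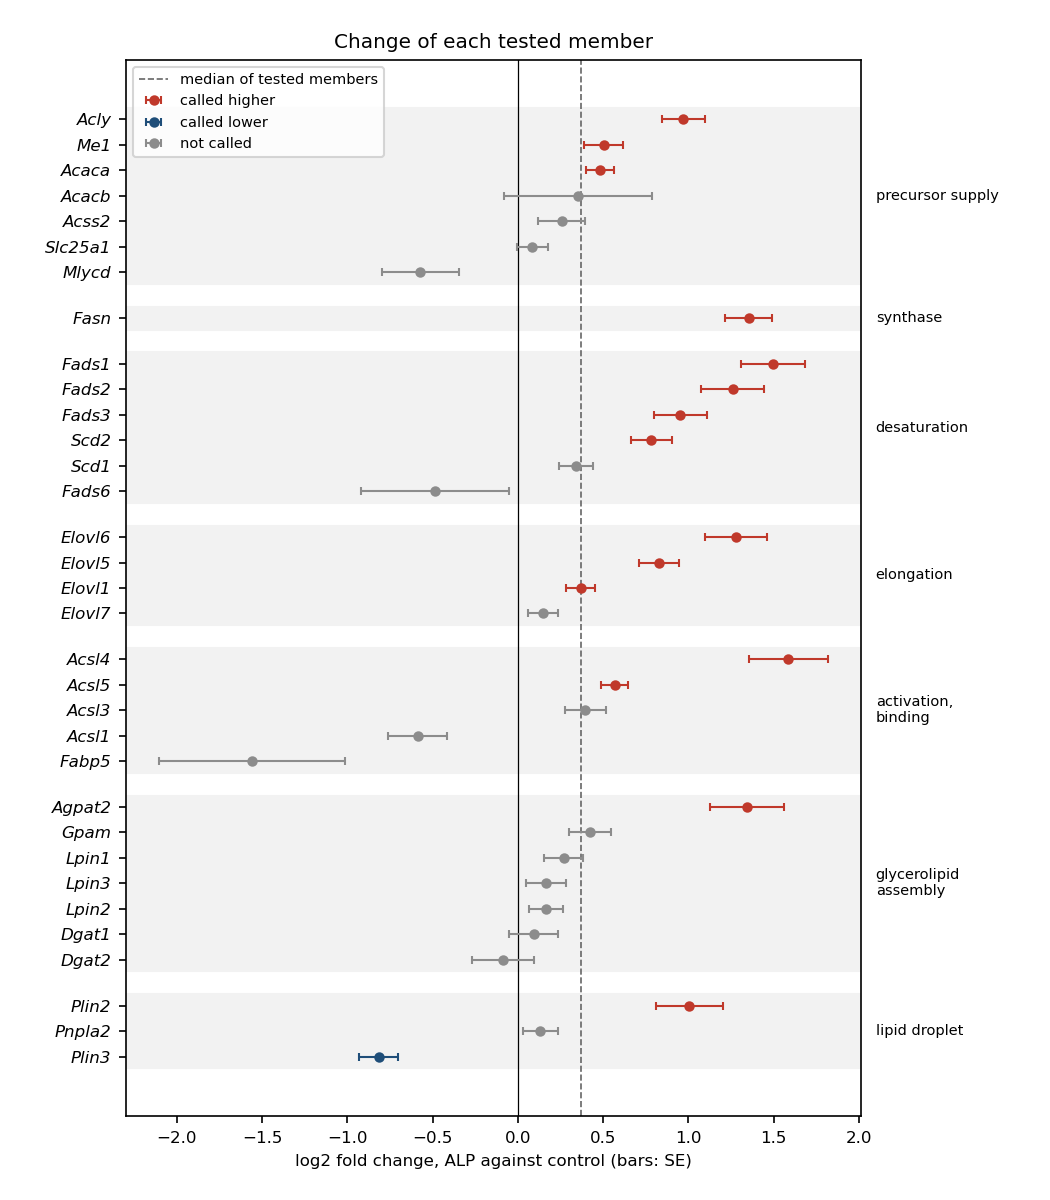
Log2 fold change of ALP against control (horizontal axis) for the 33 tested genes, grouped by role, with bars of 1 standard error from edgeR; colour marks the adjusted p call. The 15 genes that rose lie between 0.37 and 1.59, and Plin3 at -0.82 is the 1 gene that fell.

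The RefSeq promoter table for GRCm38.p6 held 29 of the 36 genes in 36 windows, of which the 250 bases before the start were read. Scd1, Scd2, Fads1, Dgat1, Dgat2, Fabp5 and Elovl3 were not matched. Shown here are the windows of the 5 genes with the largest increases among those whose window holds at most 1 annotated exon base, of the gene that fell, and of the only window with the sterol regulatory element letters. Capitals mark CCAAT, the nuclear factor Y box that often accompanies sterol regulatory elements, or TCACNCCAC, a form of that element, on either strand, and each window is written 5′ to 3′ on its gene's strand.
Acsl4 (chrX:142390536-142390785, minus strand): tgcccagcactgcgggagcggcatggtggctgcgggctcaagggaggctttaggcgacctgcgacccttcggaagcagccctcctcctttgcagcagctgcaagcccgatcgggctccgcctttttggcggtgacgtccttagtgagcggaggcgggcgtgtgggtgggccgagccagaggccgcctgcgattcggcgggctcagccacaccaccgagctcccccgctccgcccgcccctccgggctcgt
Fasn (chr11:120824548-120824797, minus strand): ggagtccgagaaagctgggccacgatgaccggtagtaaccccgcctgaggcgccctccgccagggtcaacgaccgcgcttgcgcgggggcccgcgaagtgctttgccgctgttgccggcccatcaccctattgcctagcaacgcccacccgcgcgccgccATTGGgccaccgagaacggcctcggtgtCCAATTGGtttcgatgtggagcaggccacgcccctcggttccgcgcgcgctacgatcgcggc
Agpat2 (chr2:26604418-26604667, minus strand): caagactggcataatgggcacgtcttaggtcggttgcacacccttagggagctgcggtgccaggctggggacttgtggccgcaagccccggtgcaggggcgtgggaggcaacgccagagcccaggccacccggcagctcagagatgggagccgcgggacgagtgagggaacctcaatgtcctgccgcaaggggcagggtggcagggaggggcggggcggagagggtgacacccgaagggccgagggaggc
Plin2 (chr4:86670060-86670309, minus strand): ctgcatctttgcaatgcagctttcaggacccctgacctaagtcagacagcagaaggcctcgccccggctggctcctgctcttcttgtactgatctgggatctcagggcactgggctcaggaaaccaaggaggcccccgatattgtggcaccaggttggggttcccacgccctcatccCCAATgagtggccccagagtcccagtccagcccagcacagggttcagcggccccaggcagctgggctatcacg
Acly (chr11:100528001-100528250, minus strand): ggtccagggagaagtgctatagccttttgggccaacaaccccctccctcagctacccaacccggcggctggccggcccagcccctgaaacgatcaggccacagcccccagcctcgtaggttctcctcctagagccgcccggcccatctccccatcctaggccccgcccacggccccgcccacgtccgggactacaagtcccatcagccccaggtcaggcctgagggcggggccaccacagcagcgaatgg
Plin3 (chr17:56290512-56290761, minus strand): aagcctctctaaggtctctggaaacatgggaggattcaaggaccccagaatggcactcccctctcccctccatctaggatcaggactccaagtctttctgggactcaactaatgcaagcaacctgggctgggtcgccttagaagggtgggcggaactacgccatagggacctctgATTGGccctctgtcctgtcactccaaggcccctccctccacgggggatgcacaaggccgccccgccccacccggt
Acsl1 (chr8:46490716-46490965, plus strand): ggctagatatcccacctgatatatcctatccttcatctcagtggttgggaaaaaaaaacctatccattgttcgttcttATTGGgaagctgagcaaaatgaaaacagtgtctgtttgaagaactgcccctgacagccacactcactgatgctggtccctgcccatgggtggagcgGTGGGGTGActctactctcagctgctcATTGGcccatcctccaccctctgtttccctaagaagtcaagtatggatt

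In the Fasn window CCAAT stood on the minus strand at -90 to -86, on the plus strand at -62 to -58 and on the minus strand at -59 to -55, counted from the start site, and the last pair overlap. The Plin2 window held it once at -73 to -69 on the plus strand and the Plin3 window once at -75 to -71 on the minus strand. As annotated in the deposited table the Plin3 window lies within the gene. The Acsl4, Agpat2 and Acly windows held neither motif. CCAAT was present in 18 of the 36 windows, or 50%, against 33.8% of the table's 32851 windows. TCACNCCAC was found in the printed Acsl1 window alone, on the minus strand at -76 to -68, 2.78% of these windows against 1.05% of all. As annotated in the deposited table that Acsl1 window also lies within the gene. The other Acsl1 window, just before the annotated gene start, did not hold TCACNCCAC. The E-box CACGTG was in 3 windows, those of Elovl5, Lpin2 and Slc25a1 (8.33% against 6.02%), and the GC box GGGCGG in 21 (58.3% against 32.7%). A direct repeat of AGGTCA with 4 bases between, a form bound by LXR, and one with 1 base between, a form bound by PPAR, were in 0 of the 36, against 0.0152% and 0.0335% of all windows. All were searched on both strands. These are letter matches only.

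Genes that supply the building blocks rose at 3 of the 7 steps tested (42.9%, against 17.7% of all genes), with a median log2 fold change of 0.35. Acly (chr11:100476353-100528000), the ATP citrate lyase that makes cytosolic acetyl-CoA, was counted at 854 and 995 CPM in ALP 2 and ALP 3 and 436 and 507 CPM in control 1 and control 3. Both ALP libraries were well above both controls, 924 ± 99.8 against 472 ± 50.1 CPM (mean ± SD, n = 2 each), and Acly rose 1.96-fold (0.97 ± 0.13 log2, SE; adjusted p = 0.0161). Acaca, acetyl-CoA carboxylase 1, which makes the malonyl-CoA used in synthesis, stood at 251 and 246 CPM with ALP against 176 and 179 CPM in the controls. The libraries of a group nearly coincided there, and Acaca rose 1.40-fold (0.48 ± 0.08 log2; adjusted p = 0.0174). Me1, the cytosolic malic enzyme that yields NADPH, was at 83.6 and 83.4 CPM in the controls and 107 and 129 CPM with ALP and rose 1.42-fold (0.50 ± 0.11 log2; adjusted p = 0.0286).

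The other 4 did not pass the test. Mlycd, malonyl-CoA decarboxylase, which breaks down the product of Acaca, stood at 5.66 and 6.97 CPM with ALP against 10.6 and 8.16 CPM in the controls, a log2 fold change of -0.57 ± 0.23 with adjusted p = 0.104. Both of its ALP libraries lay below both controls, opposite in sign to Acaca and Fasn, and without ALP 3 Mlycd was called lower (-0.72 log2, adjusted p = 0.0315). Slc25a1, the mitochondrial citrate exporter, had overlapping groups at 158 and 152 CPM with ALP against 139.7 and 153 CPM in the controls. Acss2, which makes acetyl-CoA from acetate, was at 20.3 and 20.5 CPM with ALP against 15.9 and 18.2 CPM in the controls (0.26 ± 0.14 log2; adjusted p = 0.196). Acacb, the carboxylase whose malonyl-CoA restrains mitochondrial import of fatty acids, was close to absent, at 1.33 and 0.839 CPM with ALP against 0.735 and 0.970 CPM in the controls, and its sign turned to -0.03 without ALP 2.

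Fasn (chr11:120805846-120824547), the fatty acid synthase itself, was counted at 1141 and 1352 CPM in ALP 2 and ALP 3 and 446 and 530.1 CPM in control 1 and control 3. ALP 3 was the highest and control 1 the lowest, and the groups were far apart, 1246 ± 149.6 against 488 ± 59.1 CPM (SD, n = 2). Fasn rose 2.55-fold (1.35 ± 0.14 log2; adjusted p = 0.0161). Its window holds the 3 CCAAT matches printed above. CCAAT also stood in windows of Plin2 and Fads3, which rose, and of Mlycd and Lpin2, which did not pass. Its part in the change of Fasn was not tested.

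**Figure D2:**
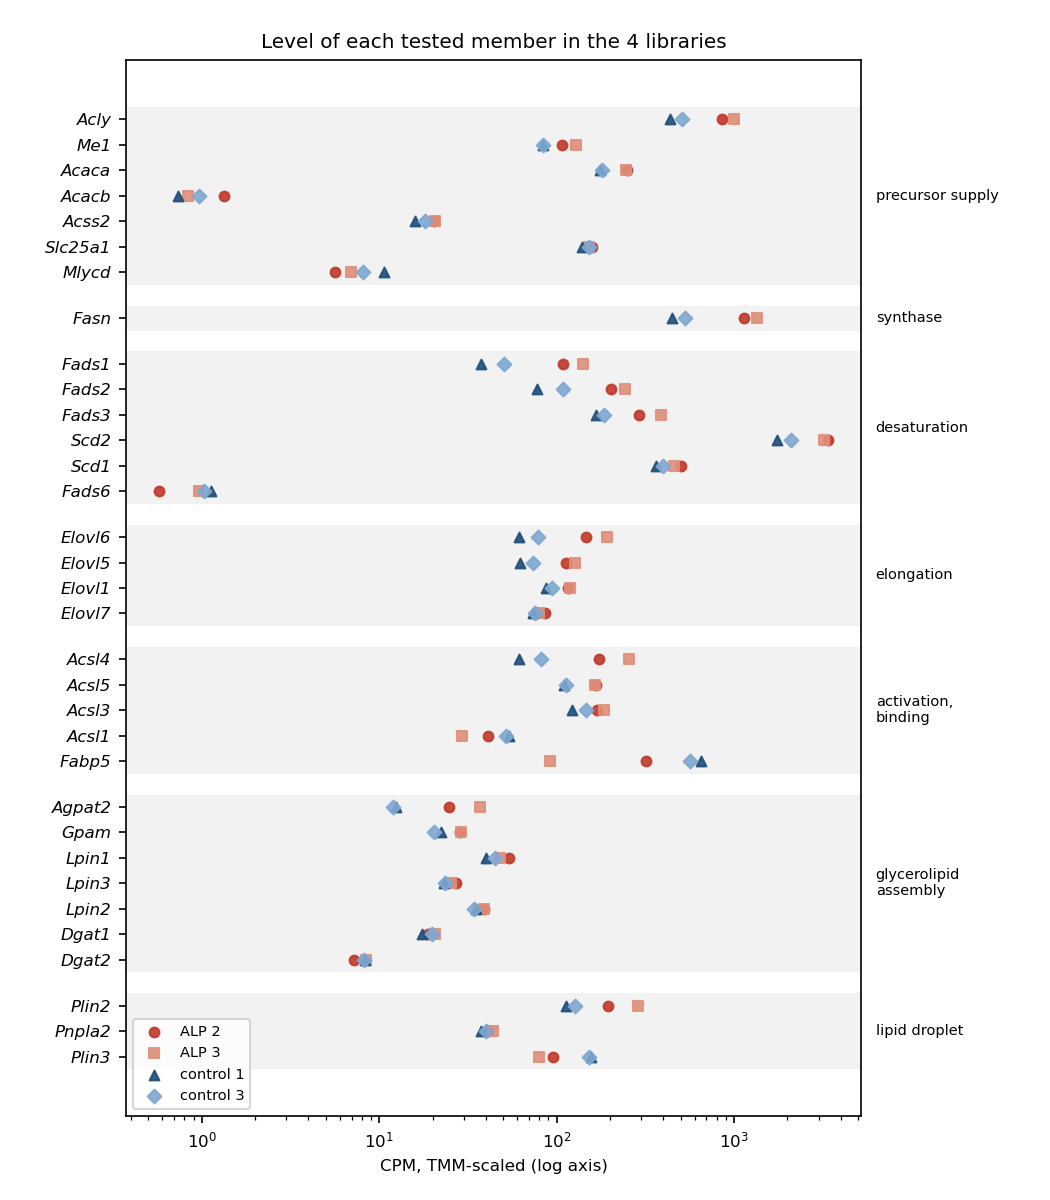
CPM (log axis) of the tested genes in each library, with ALP and control libraries as separate colours and genes grouped by role. Fasn, Acly, Fads1, Fads2, Elovl6, Acsl4 and Agpat2 show both ALP points above both control points, and Plin3 both below.

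Desaturases rose at 4 of the 6 tested (66.7%, against 17.7% of all genes), with a median log2 fold change of 0.87. Scd2 (chr19:44293676-44306864), a delta-9 desaturase that makes oleate and palmitoleate, had the highest counts of the 36, at 3370.1 and 3214 CPM in ALP 2 and ALP 3 and 1744 and 2085 CPM in control 1 and control 3. The ALP pair was tight and above both controls, and Scd2 rose 1.72-fold (0.78 ± 0.12 log2; adjusted p = 0.0163). Its paralogue Scd1 (chr19:44394451-44407709), 87.6 kb away on the same chromosome, was at 505 and 458 CPM with ALP against 364 and 396 CPM in the controls. Those groups did not overlap, but Scd1 missed the threshold (1.27-fold, 0.34 ± 0.10 log2; adjusted p = 0.0523). Reads shared between the near-identical parts of Scd1 and Scd2 could be split by the authors' counting, so both counts carry that uncertainty.

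Fads1, Fads2 and Fads3 lie in 1 cluster on chromosome 19, with Fads3 and Fads2 4.49 kb apart and Fads2 and Fads1 81.4 kb apart, and all 3 rose. Fads1 (chr19:10182888-10196870), the delta-5 desaturase of the long polyunsaturated chains, was at 108 and 140.2 CPM with ALP against 37.7 and 50.4 CPM in the controls, a 2.82-fold rise (1.496 ± 0.19 log2; adjusted p = 0.0161). Fads2 (chr19:10064164-10101503), the delta-6 desaturase that opens the same pathway, was at 77.7 and 109 CPM in the controls and 204 and 243 CPM with ALP, 2.39-fold (1.26 ± 0.19 log2; adjusted p = 0.0161). Fads3 (chr19:10041548-10059671), a desaturase acting on sphingoid bases, was at 167 and 185 CPM in the controls and 293 and 389 CPM with ALP, 1.94-fold (0.95 ± 0.16 log2; adjusted p = 0.0167). In each of the 3, ALP 3 was the highest library and control 1 the lowest. Fads6, a family member of little-known function, was near the floor at 0.578 and 0.968 CPM with ALP against 1.13 and 1.03 CPM in the controls and did not pass (-0.49 ± 0.43 log2; adjusted p = 0.418).

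Elongases rose at 3 of the 4 members tested (75%, against 17.7% of all genes). Elovl6, which lengthens palmitate to stearate and so feeds the delta-9 desaturases, was at 147 and 193 CPM in ALP 2 and ALP 3 and 61.1 and 78.7 CPM in control 1 and control 3. It rose 2.43-fold (1.28 ± 0.18 log2; adjusted p = 0.0161), with 169.9 ± 32.5 against 69.9 ± 12.5 CPM (SD, n = 2). Elovl5, which lengthens the polyunsaturated products of the Fads enzymes, stood at 113 and 128 CPM with ALP against 62.3 and 73.3 CPM in the controls, 1.77-fold (0.83 ± 0.12 log2; adjusted p = 0.0161). Elovl1, an elongase of saturated very long chains, was at 87.3 and 94.7 CPM in the controls and 116 and 119 CPM with ALP and had the smallest increase that passed (1.29-fold, 0.37 ± 0.09 log2; adjusted p = 0.0316). Elovl7 did not pass, at 86.6 and 79.3 CPM with ALP against 73.9 and 75.8 CPM in the controls (0.15 ± 0.09 log2; adjusted p = 0.237). Elovl1 shares 1.94% of its exon bases with Cdc20 on the opposite strand, and without knowledge of library strandedness reads there cannot be assigned to either.

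Among genes that activate and bind fatty acids 2 of the 5 tested rose (40%, against 17.7% of all genes). None fell by the test, though 2 had a negative sign. Acsl4 (chrX:142317993-142390535), the acyl-CoA synthetase that prefers arachidonate, had the largest increase of the 33, 3.0 (1.59 ± 0.23 log2; adjusted p = 0.0161). It was counted at 173 and 257 CPM in ALP 2 and ALP 3 and 61.7 and 81.5 CPM in control 1 and control 3, with ALP 3 above ALP 2 and both above the controls. Acsl5 (chr19:55251938-55297720), which activates chains for storage and oxidation, was nearly identical within groups at 166 and 165 CPM with ALP against 110.2 and 113 CPM in the controls and rose 1.48-fold (0.57 ± 0.08 log2; adjusted p = 0.0161), though 8.31% of its exon bases overlap the oppositely oriented Zdhhc6. Acsl3, a synthetase of the endoplasmic reticulum and lipid droplets, missed the threshold at 169 and 185 CPM with ALP against 122 and 147 CPM in the controls (0.40 ± 0.12 log2; adjusted p = 0.0565), and shares 5.6% of its exon bases with Utp14b on the same strand.

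Acsl1, the major synthetase of liver and fat, had the opposite sign, at 41.1 and 29.4 CPM with ALP against 54.3 and 51.9 CPM in the controls (-0.59 ± 0.17 log2; adjusted p = 0.0522). Its groups did not overlap, and ALP 3 was the lowest library. It was called lower by DESeq2, by limma-voom, and without ALP 2 (-0.86 log2) or ALP 3 (-0.36 log2). Fabp5 (chr3:10012548-10016607), the epidermal fatty acid binding protein, had the most unequal ALP pair, at 320.1 and 92.1 CPM in ALP 2 and ALP 3 and 651 and 564 CPM in control 1 and control 3. Both ALP libraries were below both controls, but they lay far apart from each other, leaving -1.56 ± 0.54 log2 with adjusted p = 0.0784. The value was -2.73 without ALP 2 and -0.91 without ALP 3, each called lower, and limma-voom gave adjusted p = 0.0453. Fabp5 has many processed pseudogenes, so its count is uncertain. The summed level of the differentiated keratinocyte markers was likewise lowest in ALP 3, though 1 of the 7, Ivl, was highest there. The sums of basal keratinocyte, fibroblast, melanocyte and adipocyte markers were also lowest in ALP 3, while those of sebocyte and endothelial markers were highest. Any relation of these sums to Fabp5 was not tested.

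Of the 7 glycerolipid assembly genes 1 rose (14.3%, near the 17.7% of all genes), with a median log2 fold change of 0.17. Agpat2 (chr2:26593057-26604417), the acyltransferase that makes phosphatidic acid, was at 24.9 and 37.1 CPM in ALP 2 and ALP 3 and 12.4 and 11.98 CPM in control 1 and control 3. The controls were alike and both ALP libraries lay above them, and Agpat2 rose 2.54-fold (1.34 ± 0.22 log2; adjusted p = 0.0164). It shares 3.005% of its exon bases with Egfl7 on the opposite strand. Gpam, the mitochondrial acyltransferase that starts the pathway, narrowly missed the threshold at 28.5 and 28.9 CPM with ALP against 22.4 and 20.4 CPM in the controls (0.42 ± 0.12 log2; adjusted p = 0.0503). None of the 3 phosphatidate phosphatases passed. Lpin1 was at 53.7 and 48.2 CPM with ALP against 39.9 and 44.8 CPM in the controls (adjusted p = 0.120), Lpin2 at 38.9 and 39.2 CPM with ALP against 35.2 and 34.5 CPM in the controls (adjusted p = 0.246) and Lpin3 at 27.1 and 25.4 CPM with ALP against 23.2 and 23.6 CPM in the controls (adjusted p = 0.322). The last step to triglyceride is made by Dgat1 and Dgat2, whose groups overlapped: 18.8 and 20.7 CPM with ALP against 17.4 and 19.7 CPM in the controls for Dgat1, and 7.22 and 8.39 CPM with ALP against 8.37 and 8.21 CPM in the controls for Dgat2. Their log2 fold changes were 0.09 ± 0.14 and -0.09 ± 0.18, and the sign of each turned when 1 library was left out (Dgat1 -0.01 without control 1, Dgat2 0.01 without ALP 2).

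Lipid droplet coat proteins moved in both directions. Plin2 (chr4:86648386-86670060), the coat protein found on droplets of most cells, was at 194 and 287 CPM in ALP 2 and ALP 3 and 113 and 127 CPM in control 1 and control 3. ALP 3 was well above ALP 2 and both were above the controls, 241 ± 65.5 against 119.8 ± 9.48 CPM (SD, n = 2), and Plin2 rose 2.01-fold (1.01 ± 0.19 log2; adjusted p = 0.0215). Plin3 (chr17:56277476-56292873), a coat protein that also exists free in the cytosol, was at 156 and 152 CPM in the controls and 96.0 and 79.2 CPM with ALP. It fell by 0.82 ± 0.12 on the log2 scale (adjusted p = 0.0161), the only one of the 33 that fell. Pnpla2, the triglyceride lipase of droplets, was at 41.1 and 43.6 CPM with ALP against 37.3 and 40.0 CPM in the controls and did not pass (0.13 ± 0.10 log2; adjusted p = 0.361).

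**Figure D3:**
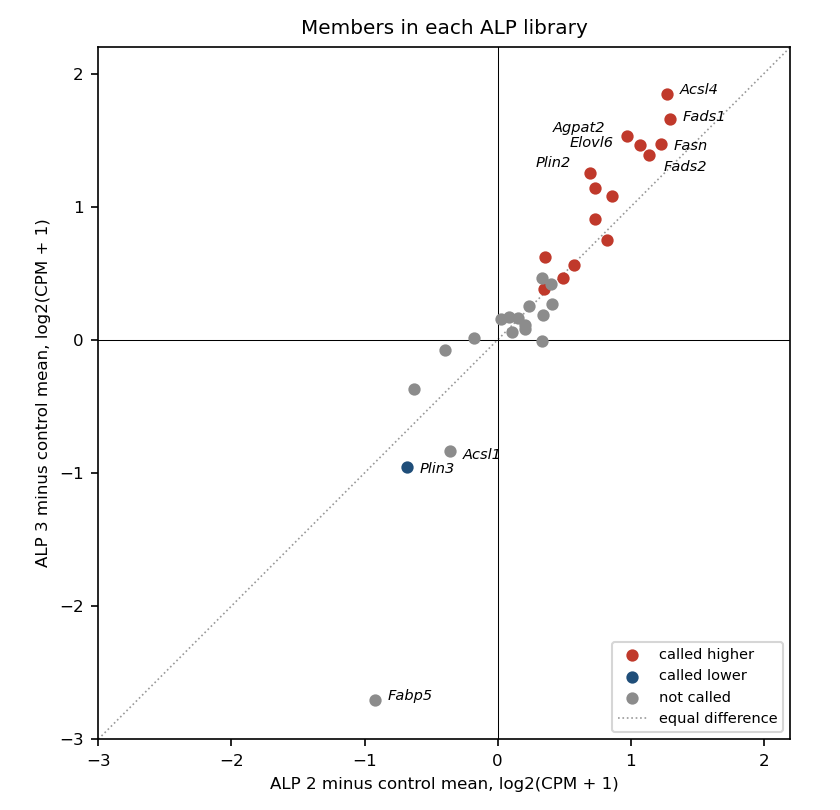
Log2(CPM + 1) of each tested gene minus its control mean, for ALP 2 (horizontal) against ALP 3 (vertical), with the line of equality. Of the 15 genes that rose, 12 lie further from the controls in ALP 3, and Fabp5 is the point furthest from the line at -0.92 and -2.71. ALP 3 also differed more from the controls over all genes.

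The 2 ALP libraries were not equally far from the controls. On the log2(CPM + 1) scale, ALP 3 lay further from the control mean than ALP 2 in 12 of the 15 genes that rose, in Plin3, and in 8 of the 17 that did not pass. Over all genes, too, ALP 3 differed more from control 1 and control 3, with a chi-square per degree of freedom of 164 and 133. For ALP 2 it was 84.3 and 59.8. The share of all genes lying further away in ALP 3 was not computed. Acsl4 was 1.27 above the control mean in ALP 2 and 1.84 above in ALP 3, Plin2 0.70 and 1.26, and Fasn 1.23 and 1.47. Scd2 and Acaca went the other way by little, 0.82 and 0.75 for Scd2 and 0.49 and 0.46 for Acaca. Acsl1 was at -0.36 and -0.83.

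Per length, on the FPKM scale (counts per kilobase of gene length, scaled to library size), Scd2 was the highest of the genes in both groups, at 355 ± 43.5 FPKM in the controls and 596 FPKM with ALP (mean, SD for controls, n = 2). Fabp5 came next in the controls at 172 FPKM, followed by Acly at 90.5 and Scd1 at 79.6. With ALP the order behind Scd2 was Acly at 173 FPKM, Fads2 at 146, Fasn at 112, Fads3 at 103 and Scd1 at 98.3, with Fabp5 at 57.2. The place of Fads2 depends on its deposited length of 1508 bases, against 3295 exon bases in the GENCODE M21 annotation. The lowest tested genes were Fads6 at 0.164 and Acacb at 0.0896 FPKM in the controls. Scd2 alone made 34.0% and 31.2% of the genes' summed FPKM in ALP 2 and ALP 3 and 27.1% and 29.3% in the controls.

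Ratios of FPKM levels within a library were taken for 7 pairs of related genes. Scd2 stood at 5.92 and 6.23 times Scd1 in ALP 2 and ALP 3 and 4.25 and 4.67 times in the controls. Acsl4 was 8.15 and 16.98 times Acsl1 with ALP and 2.204 and 3.05 times in the controls, the widest shift of the 7 ratios taken. Plin3 exceeded Plin2 in the controls, where Plin2 was 0.779 and 0.896 of it, and with ALP Plin2 was 2.18 and 3.91 times Plin3. Elovl6 passed from 0.516 and 0.648 of Elovl7 to 1.06 and 1.52 times it. Fasn was 7.09 and 8.58 times Acaca with ALP against 3.95 and 4.61 in the controls, and 54.6 and 52.6 times Mlycd against 11.4 and 17.6. Fads2 to Fads1 was the ratio that was lower with ALP, 4.31 and 3.97 against 4.72 and 4.96. In all 7 ratios the groups did not overlap, and the exact two-sided permutation p was 0.333 for each, the smallest that 2 libraries against 2 allow. Most pairs set a gene that rose against a gene that fell or did not pass, so their separation partly restates those results. Of all single genes tested, 38.2% had both ALP libraries above both controls and 37.5% had both below. The share over other pairs of genes was not computed.

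**Figure D4:**
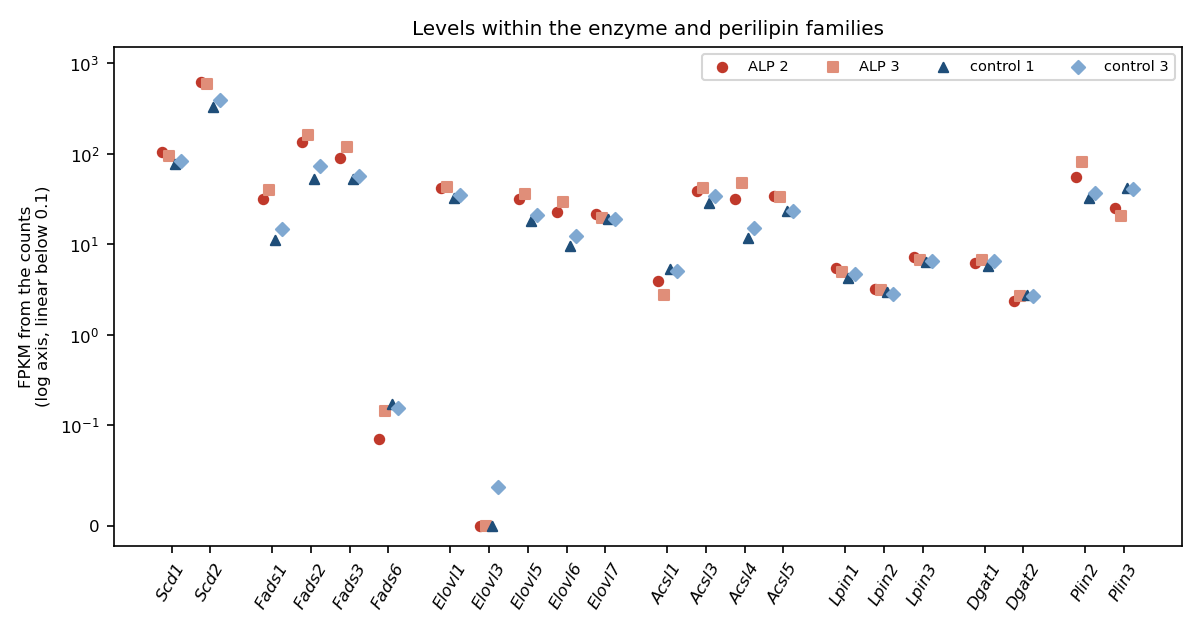
FPKM (log axis, linear below 0.1) of the desaturase, elongase, acyl-CoA synthetase, lipin, Dgat and perilipin genes in each library. Plin2 lies below Plin3 in both controls and above it in both ALP libraries, and Scd2 is above Scd1 in all 4.

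The 7 lists of related lipid genes, 99 genes in all with 73 tested, gave 23 higher (31.5% of those tested, against 17.7% of all genes) and 9 lower (12.3%, against 12.1% of all genes), with a median log2 fold change of 0.15. These lists, too, were chosen with earlier results of these data known, and their shares below only describe them. Among 12 tested regulators of the SREBP, LXR, ChREBP and PPAR families, 3 rose (Insig1, Mid1ip1 and Ppard), 1 fell (Nr1h2), and the median was 0.08. These shares, 25% and 8.33%, compare with 17.7% and 12.1% of all genes. Insig1, the sterol-regulated protein that retains SREBPs in the endoplasmic reticulum, was at 112 and 141 CPM with ALP against 39.6 and 47.6 CPM in the controls (1.54 ± 0.15 log2; adjusted p = 0.0161). Srebf1, which encodes the SREBP that drives fatty acid genes, had overlapping groups at 187 and 148 CPM with ALP against 173 and 181 CPM in the controls (-0.08 ± 0.13 log2; adjusted p = 0.664), and its sign turned without ALP 3, to 0.09. Srebf2, which encodes the SREBP of cholesterol synthesis, was at 470.0 and 477 CPM with ALP against 392.4 and 407 CPM in the controls (0.24 ± 0.08 log2; adjusted p = 0.0764). Mid1ip1, an activator of acetyl-CoA carboxylase related to the barely detected Thrsp, was at 135 and 178 CPM with ALP against 72.1 and 94.5 CPM in the controls (0.91 ± 0.19 log2; adjusted p = 0.0239), and Ppard, a fatty acid receptor, rose by 0.95 ± 0.12 (adjusted p = 0.0161). Nr1h2, which encodes LXR beta, was at 66.2 and 47.9 CPM with ALP against 85.7 and 82.7 CPM in the controls (-0.56 ± 0.16 log2; adjusted p = 0.0498, and -0.34 log2 without ALP 3). Nr1h3, Mlxipl and Pparg were too low to test, at no more than 0.57 CPM in any library. Mid1ip1 shares 25.5% of its exon bases with Gm14493 on the opposite strand, a gene with 0 counts over the 4 libraries.

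Other NADPH sources rose at 4 of 8 genes and fell at 2 (Idh2 and Me3). These shares, 50% and 25%, compare with 17.7% and 12.1% of all genes. Pgd, of the pentose phosphate pathway, was at 489 and 577 CPM with ALP against 228 and 274 CPM in the controls (1.09 ± 0.14 log2; adjusted p = 0.0161), and its partner G6pdx at 185 and 196 CPM with ALP against 132 and 134 CPM in the controls (0.52 ± 0.08 log2; adjusted p = 0.0164). Mthfd1, of folate metabolism, rose by 0.80 ± 0.09 (adjusted p = 0.0161). G6pdx shares 13.6% of its exon bases with Ikbkg on the opposite strand.

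Partners of the elongation cycle, listed together with other elongases and desaturases, rose at 3 of 9 (33.3%, against 17.7% of all genes). None fell by the test. Both ALP libraries lay above both controls in 4 of the 9 and below both in 3, against 38.2% and 37.5% of all genes tested. Hsd17b12, the ketoacyl-CoA reductase of the cycle, was at 182 and 224 CPM with ALP against 75.1 and 87.6 CPM in the controls (1.32 ± 0.14 log2; adjusted p = 0.0161). Hacd1, a dehydratase of the cycle, rose by 0.99 ± 0.26 (adjusted p = 0.0392) and Degs1, the dihydroceramide desaturase, by 0.34 ± 0.10 (adjusted p = 0.0488), a call lost under each other scaling and without the filter.

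Other glycerolipid and phospholipid genes rose at 8 of 20 and fell at 1 (Cds1), with a median log2 fold change of 0.40. These shares, 40% and 5%, compare with 17.7% and 12.1% of all genes. Lpcat1, an acyltransferase that remodels phosphatidylcholine, was at 60.8 and 94.5 CPM with ALP against 17.3 and 23.3 CPM in the controls (1.93 ± 0.26 log2; adjusted p = 0.0161). Lpcat4, of the same family, rose by 1.28 ± 0.20 (adjusted p = 0.0163), and Pcyt2, of phosphatidylethanolamine synthesis, by 0.58 ± 0.11 (adjusted p = 0.0210).

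Other transporters, thioesterases and binding proteins were the list with the most decreases, 4 of 10 against 3 increases, with a median of -0.44. The shares were 40% lower and 30% higher, against 12.1% and 17.7% of all genes. Acot2, a mitochondrial acyl-CoA thioesterase, was at 2.72 and 1.94 CPM with ALP against 17.9 and 13.0 CPM in the controls and fell by 2.72 ± 0.27 on the log2 scale (adjusted p = 0.0161). Slc27a1, a fatty acid transport protein, was at 20.5 and 14.98 CPM with ALP against 39.3 and 42.2 CPM in the controls and fell by 1.20 ± 0.18 (adjusted p = 0.0161). Acot7, a cytosolic thioesterase, was at 37.0 and 55.6 CPM with ALP against 14.5 and 19.7 CPM in the controls (1.44 ± 0.25 log2; adjusted p = 0.0181).

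Among 9 other droplet and lipolysis genes 2 rose and 1 fell. These shares, 22.2% and 11.1%, were near those of all genes, 17.7% and 12.1%. G0s2, an inhibitor of Pnpla2, was low in all libraries, at 0.867 and 1.48 CPM with ALP against 0.113 and 0.228 CPM in the controls (2.73 ± 0.61 log2; adjusted p = 0.0289), a call lost without ALP 3. Fitm2, a droplet-forming protein, rose by 0.41 ± 0.11 (adjusted p = 0.0392), and Bscl2, which encodes seipin, fell by 0.56 ± 0.15 (adjusted p = 0.0417, and -0.37 log2 without ALP 3). None of the 5 tested genes of mitochondrial fatty acid synthesis, a separate pathway that makes octanoate for lipoic acid, passed. Cbr4 was at -0.39 ± 0.13 log2 (adjusted p = 0.0703), Mecr at 0.19 ± 0.15 (adjusted p = 0.364) and Ndufab1 at 0.20 ± 0.10 (adjusted p = 0.177).

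Other tools called somewhat more of the 36 genes. DESeq2 called 17 higher and 2 lower, beside 17.4% and 12.8% of all genes it tested, adding Scd1, Acsl3 and, among decreases, Acsl1. Limma-voom called 18 higher and 3 lower, beside 18.7% and 15.1% of all genes, adding Gpam to these, and Fabp5 among decreases. In the authors' deposited table, 34 of the 36 genes have a value, 17 called higher and 2 lower, beside 10.4% and 7.64% of all genes with a value there. In the authors' deposited table Scd1 has a log2 fold change of 0.34 with an adjusted p of 0.0265, and Acsl1 one of -0.59 with 0.0186.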

How the data were processed

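RNA sequencing of 4 EpSC libraries gave 1 deposited table. Per the labels' protocols, total RNA was taken with TRIzol and a service company made the libraries. Per the submitters' processing notes, the aligner was HISAT2 2.0.5 and the counter featureCounts 1.5.0-p3; those notes name GRCh38, while the table's identifiers are mouse. Library kit, strandedness and the treatment of reads with several matches (not given in the sources used here) can affect Scd1, Scd2, Fabp5 and genes with overlapping exons. The deposited table holds raw counts, gene lengths, and the authors' log2 fold changes and adjusted p-values from their own comparison. Their normalised signal columns were deposited too and were not used.

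The raw counts were fitted in edgeR 4.0.16 (R 4.3.3) with TMM scaling, the filterByExpr filter (minimum count 10, total 15), group alone, and Benjamini-Hochberg adjustment over the 14056 genes tested; CPM values are TMM-scaled. A call is an adjusted p under 0.05. The standard error (SE) is taken from the estimate and its F statistic. FPKM for levels between genes was computed as counts per kilobase of the deposited gene length scaled to the library's total; 4 deposited columns of per-library FPKM values were not used. DESeq2 1.42.0, limma-voom 3.58.1, 3 other scalings, no filter, and leaving out each library were tried. All 36 genes are named, with the 3 genes of smallest p from each related list, plus Srebf1, Srebf2, Insig1, Mlxipl, Nr1h2, Nr1h3 and Pparg. The genes and lists were chosen with earlier results of these data known. Coordinates are those of the deposited table, and 98.1% of its genes have the same position in GENCODE M21. Of the 36 genes 29 do, while Scd1, Scd2, Fads1, Fads2, Fads3, Elovl3 and Gpam do not. The deposited length of Fads2, 1508 bases, compares with 3295 exon bases there, so its FPKM and its ratio to Fads1 depend on the annotation. The table's columns name a group and a number that differs from the labels' replicate numbers, so columns were assigned to groups only.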

Additional observations from a re-analysis of the deposited data

How the results depend on the processing

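The count of the 36 genes that rose, 15, was 17 with DESeq2, 18 with limma-voom and 15 under the other scalings and without the filter, and ran from 0 to 19 when 1 library was left out. The count that fell, 1, was 2 with DESeq2, 3 with limma-voom, 2 with RLE, upper-quartile or total-count scaling, 3 without the filter, and 0 to 4 with a library left out. For the related genes the count higher, 23, ran from 0 to 29 and the count lower, 9, from 0 to 21 with a library left out. Over all genes edgeR called 4188, with 0 without control 1 (3311 at an unadjusted p under 0.05, among them 14 of the 36 genes higher and 1 lower), 197 without control 3, 7308 without ALP 2 and 4903 without ALP 3. In these fits the lone library is assumed to vary like the other group. Acsl1 was called lower under each other scaling, and Hacd1 and Fitm2 were not called by DESeq2. Among the 36 genes signs changed in Acacb, Dgat1 and Dgat2, and among the related genes named, in Srebf1. The related lists and all genes were recomputed as alternatives chosen after seeing the data. No paired analysis was possible because the table's columns carry numbers 2 and 3 for ALP and 1 and 3 for control, which differ from the labels' and share only 1. With 2 libraries per group, depth limits mainly Acacb and Fads6, which had under 20 counts in some library.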
